A study of Mus musculus with 9 samples.

Results

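Myc, Mycn and Mycl, the 3 MYC family genes of the mouse, were examined in 4 lists of chromatin contacts from mouse embryonic stem cells. A listed pair of genomic bins was assigned to a gene when 1 bin lay within 5 kb of the gene body, or when both bins lay within 500 kb of it. By that rule 177 of the 137744 pairs in the 4 lists belonged to the family, with 118 at Mycn, 58 at Mycl and 1 at Myc. Below, a pair with a bin within 5 kb of the gene is said to touch it, and a pair with both bins within 500 kb is called enclosed.

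The cells were E14 embryonic stem cells with the genotype CTCF AID, which is an auxin-inducible degron tag on CTCF, and every group shares that genotype. All were grown without serum, with LIF, PD0325901 and CHIR99021, which keep the cells undifferentiated. H3K27ac, the acetylated histone found at active enhancers and promoters, was profiled in 2 untreated libraries and in 2 libraries treated with the auxin IAA for 12 h. The factor CTCF was profiled in 2 untreated libraries, and RAD21, a subunit of the cohesin ring, in 3 untreated libraries. The assay was MNase HiChIP, in which chromatin cut by micrococcal nuclease is ligated in the nucleus and ligated DNA is enriched with an antibody. IAA brings AID-tagged proteins to degradation, and neither the level of CTCF protein nor CTCF and RAD21 contacts after IAA were analysed here. The labels do not say whether the tagged line is 1 clone or whether replicates were separate cultures.

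MYC, MYCN and MYCL are related basic helix-loop-helix leucine zipper transcription factors that bind E-box DNA as heterodimers with MAX and drive genes of growth, metabolism and ribosome production. Embryonic stem cells rely on MYC and MYCN for proliferation, and enhancers far from these genes are known to control them in many cell types. CTCF halts cohesin as cohesin extrudes DNA loops, most often where 2 CTCF motifs point towards each other, and such loops can hold a promoter near a distant element or apart from it.

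Each group is represented by 1 list pooled over its libraries, so no value below carries a replicate error. The lists held 36274 untreated H3K27ac pairs, 28210 H3K27ac pairs after IAA, 49630 CTCF pairs and 23630 RAD21 pairs, and the median pair had 13 to 14 contacts. H3K27ac bins were 2 kb and CTCF and RAD21 bins 1 kb. The contact totals behind the authors' models ranged from 1517698 for RAD21 to 14629323 for H3K27ac after IAA. As a check of the cell type, untreated H3K27ac pairs lay at the promoter bins of 6 of 6 stem cell markers (Pou5f1, Sox2, Nanog, Klf4, Esrrb and Tfcp2l1) and at 0 of 6 markers of other lineages (Gata6, Sox17, T, Neurog2, Pax6 and Gata4). Of all protein-coding gene names, 31.3% had such a pair. Coordinates are on mm10 (GRCm38) and gene models are GENCODE M21.

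The 3 loci differed in how much was listed. Mycn (ENSMUSG00000037169.15, chr12:12936093-12941914, minus strand) was touched by 24 untreated H3K27ac pairs, 10 H3K27ac pairs after IAA, 13 CTCF pairs and 8 RAD21 pairs. Mycl (ENSMUSG00000028654.13, chr4:122995652-123002485, plus strand) was touched by 2, 1, 9 and 6 pairs in the same order. Myc (ENSMUSG00000022346.15, chr15:61985391-61990374, plus strand) was touched by 0, 1, 0 and 0. Over all 21938 protein-coding genes, 42.0% were touched by at least 1 untreated H3K27ac pair, 38.3% by an H3K27ac pair after IAA, 53.9% by a CTCF pair and 41.9% by a RAD21 pair. Only 1.87% of those genes had as many untreated H3K27ac pairs as Mycn, and 8.65% had as many CTCF pairs. For Mycl the CTCF count was reached by 14.3% of genes and the untreated H3K27ac count by 31.3%. Counted by the pairs that touch the gene, Mycn was thus high in H3K27ac and CTCF pairs, Mycl in CTCF pairs, and Myc had almost none. The enclosed pairs ranked differently. Mycn had 54 enclosed untreated H3K27ac pairs, a count reached by 21.4% of genes, but 15 enclosed CTCF pairs against a median of 23 over genes, and 9 RAD21 pairs against a median of 11. Mycl had 32 enclosed CTCF pairs, reached by 42.1% of genes, and 16 RAD21 pairs, reached by 41.6%. In enclosed CTCF and RAD21 pairs neither gene stood far from the median.

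At Mycn the untreated H3K27ac pairs joined the promoter region to a stretch on the 3′ side of the gene that holds the long noncoding RNA gene Platr19 (chr12:12787985-12794285, plus strand) and runs from there mostly towards Mycn. Platr19 belongs to a set of transcripts named for their association with pluripotency. Of the 24 pairs that touched Mycn, 20 spanned 100 kb or more, whereas 13.9% of all untreated H3K27ac pairs did. In 18 of the 24 the far bin lay between chr12:12782001 and chr12:12828000, which is 100 to 200 kb from the Mycn start site. Those 18 pairs spanned 116 to 158 kb, held 264 contacts in all and reached 5.48 to 24.2 times the contacts that the authors' model predicted from distance and coverage. The pairs share bins, since 8 far bins met the same few bins at Mycn, so they are not independent of each other. This stretch was chosen after its values were seen, and its counts are a description.

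**Figure D1:**
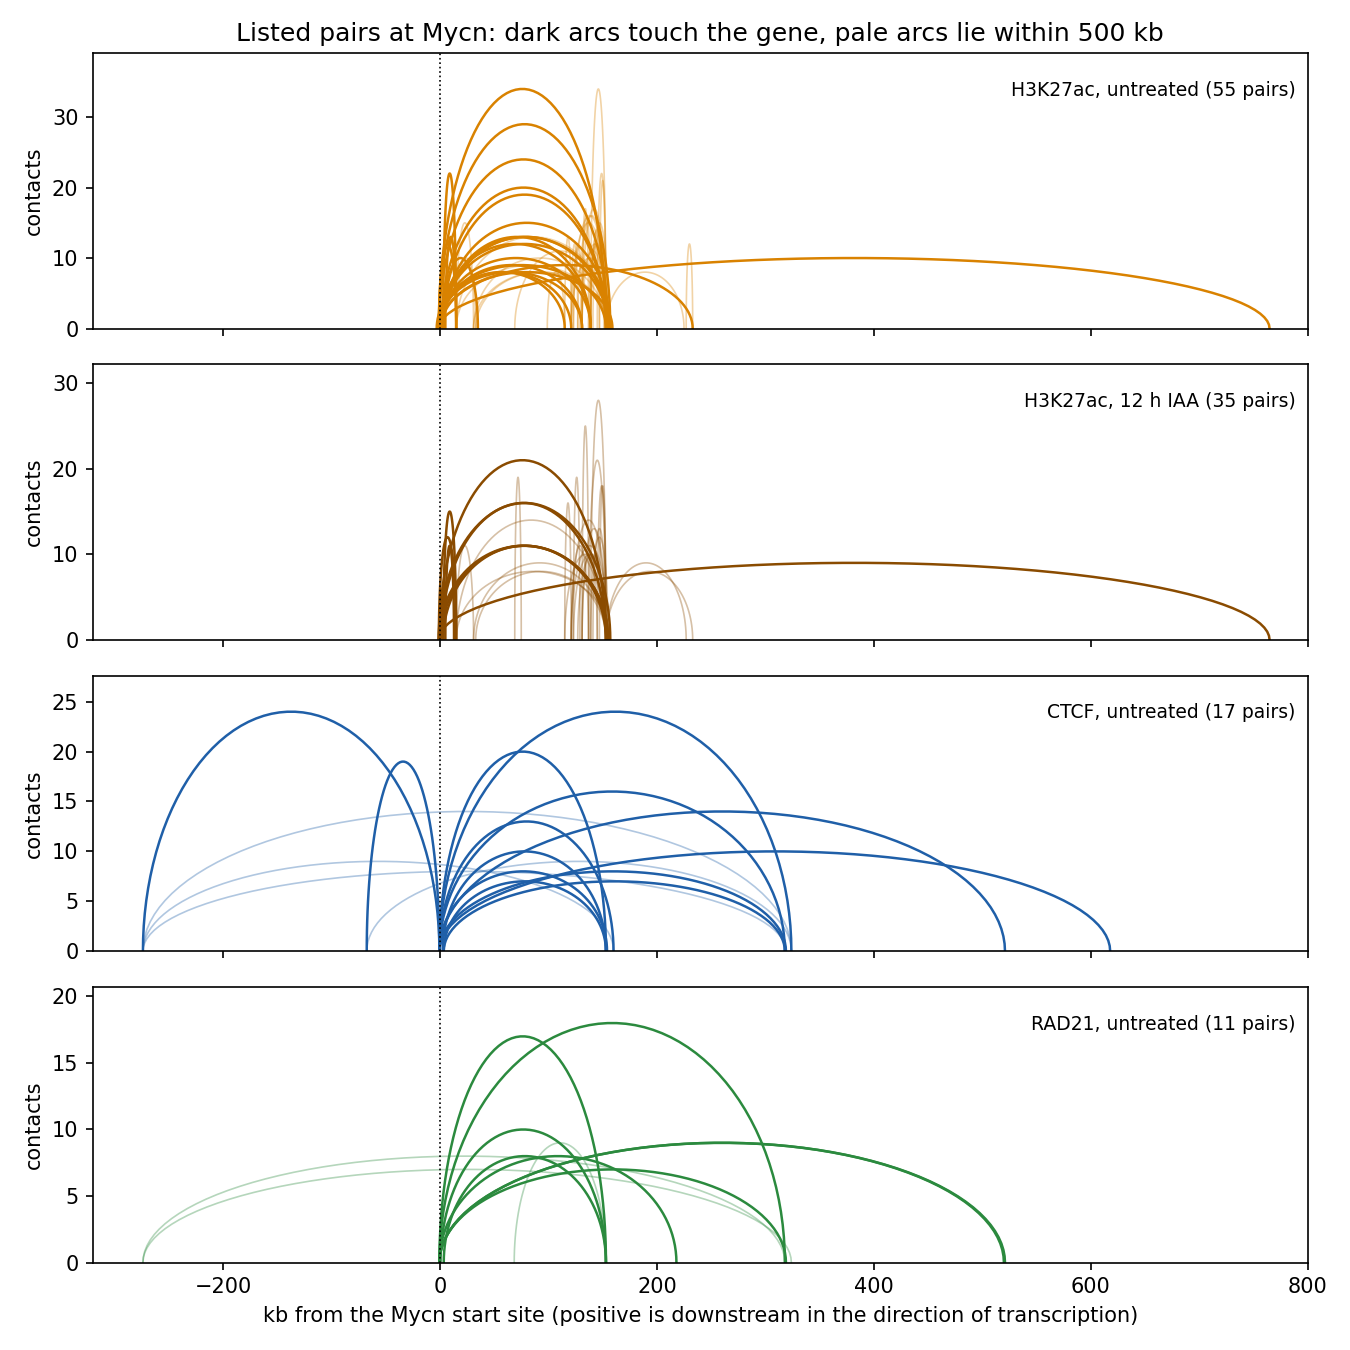
Pairs listed at Mycn in each of the 4 lists, drawn as arcs between bin centres. The horizontal axis is the distance in kb from the Mycn start site, positive in the direction of transcription, and the height of an arc is its number of contacts (each panel has its own scale). Dark arcs touch the gene and pale arcs are enclosed pairs that do not. The tall dark H3K27ac arcs meet near 153 kb downstream in both H3K27ac panels, and the CTCF panel is the only one with dark arcs that end more than 5 kb upstream of the gene.

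The pair with most contacts joined chr12:12788001-12790000, which holds an exon of Platr19, with chr12:12942001-12944000, whose first base lies just upstream of the Mycn start. It had 34 untreated contacts where 1.40 were predicted. Among untreated H3K27ac pairs of 100 to 200 kb the median was 10 contacts, and 0.945% had 34 or more. After IAA the same pair had 21 contacts. The neighbouring far bins chr12:12784001-12786000 and chr12:12786001-12788000, the latter with the Platr19 start site, had 29 and 24 untreated contacts with the same Mycn bin. Among the pairs assigned to Mycn, the Platr19 exon bin was the busiest bin, with 18 untreated pairs and 298 contacts. Counting all listed pairs of a bin, as many were found at 0.802% of the 27304 bins of that list, whose median was 1 pair.

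The bin with the Mycn start site itself, chr12:12940001-12942000, was in 6 untreated pairs. All 6 partners lay downstream, at bins starting at 12782001, 12784001, 12786001, 12788001, 12802001 and 12810001, and had 8, 13, 12, 20, 10 and 9 contacts. The only annotated start site among the partners was that of Platr19, so no protein-coding promoter was a listed partner of the Mycn promoter. After IAA the start-site bin was in 2 pairs, with 11 contacts at the Platr19 start-site bin and 16 at the Platr19 exon bin. Being called again in 2 of 6 cases is near the background, which was 31.9% for untreated pairs of 100 to 200 kb. The 2 pairs listed both times had 32 contacts without treatment and 27 after IAA, a log2 ratio, scaled as described below, of -0.22 (95% interval -1.01 to 0.57).

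Of the remaining partners, the bin chr12:12926001-12928000, 12 kb from the Mycn bin chr12:12938001-12940000, had 22 untreated contacts with it and 15 after IAA. With chr12:12942001-12944000 the same near bin had 12 contacts in both lists. With the 3′ bin chr12:12936001-12938000 it had 13 untreated contacts and was not listed after IAA. The farthest pair spanned 766 kb, from chr12:12176001-12178000 to chr12:12942001-12944000, and had 10 untreated contacts and 9 after IAA. Neither of these 2 partner bins holds an annotated gene.

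Fewer Mycn pairs were listed after IAA, and those listed both times had fewer contacts in sum. Of the 24 untreated pairs that touched Mycn, 9 were called again, or 37.5% (95% Wilson interval 21.2 to 57.3). The share over the whole untreated list was 42.9%, and 31.9% for untreated pairs of 100 to 200 kb alone. For the 18 pairs with the downstream stretch, 6 were called again, or 33.3%. The share called again at Mycn lay between these shares. With each bin free to differ by 1 bin it was 62.5%, against 65.7% of all untreated pairs and 47.5% of those of 100 to 200 kb. In the other direction, 9 of the 10 IAA pairs that touched Mycn were also called without treatment, against 55.1% over the IAA list.

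The 15 pairs listed without treatment only had 8 to 15 contacts. The highest of them joined chr12:12784001-12786000 with chr12:12938001-12940000 by 15 contacts. A pair missing from a list is not shown to be absent: among listed pairs of 100 to 200 kb with 1.2 to 1.6 predicted contacts, the lowest count was 8 in both H3K27ac lists. A total of 8 of the 15 had 10 contacts or more. The 1 pair touching Mycn that was listed after IAA only joined chr12:12928001-12930000 with chr12:12936001-12938000 by 11 contacts.

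**Figure D2:**
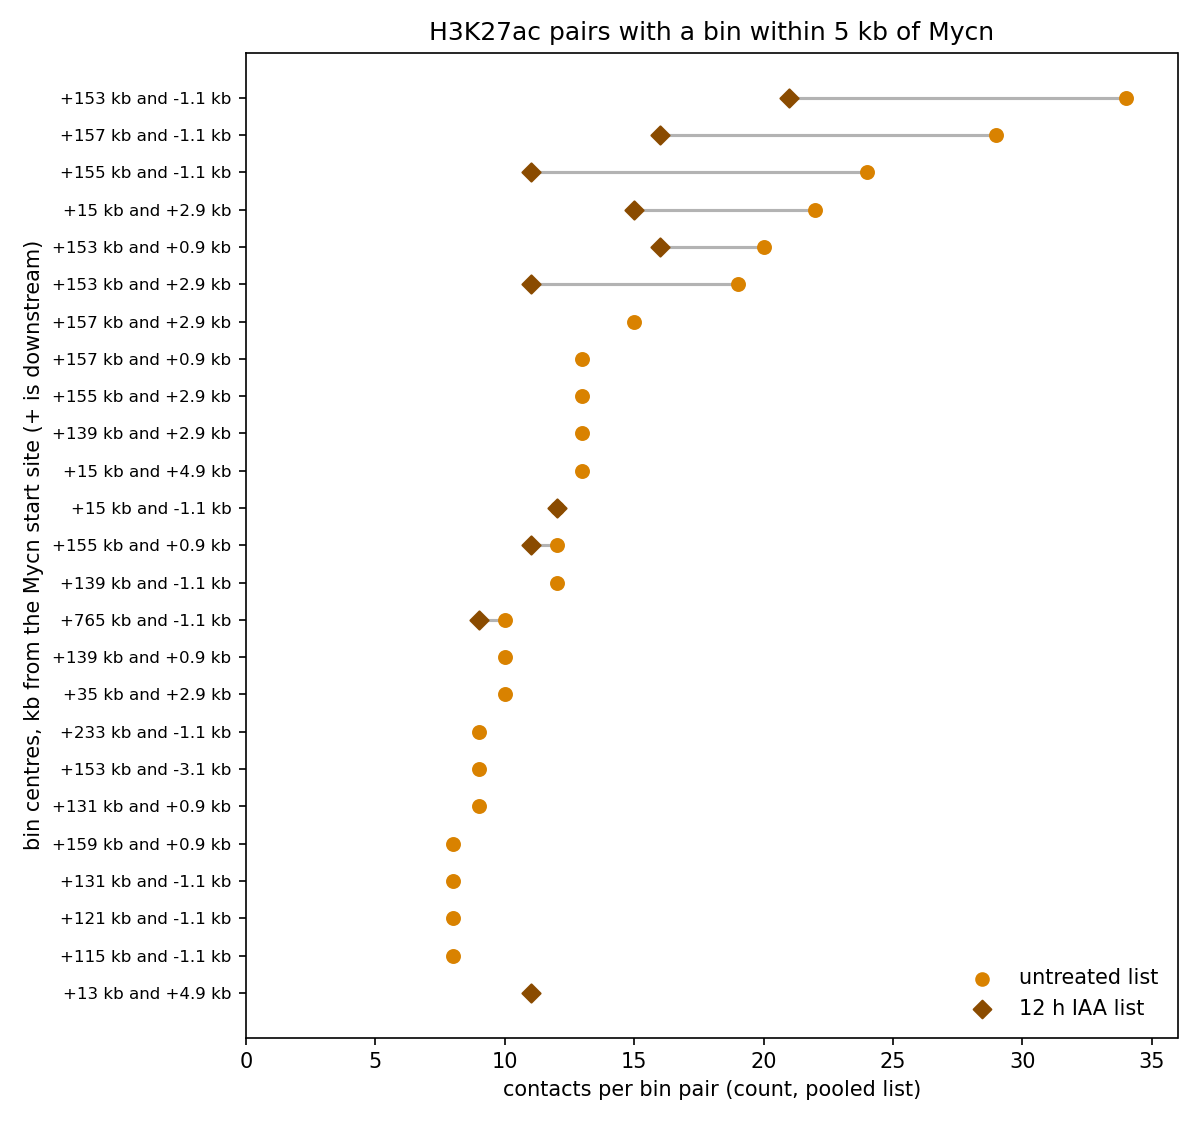
Contacts of each H3K27ac pair with a bin within 5 kb of Mycn, in the untreated list (circles) and in the list after 12 h of IAA (diamonds). Each line is 1 bin pair, named by the distance of both bin centres from the Mycn start site, and a missing symbol means that the pair is not in that list. In 8 of the 9 pairs with both values the diamond lies left of the circle, and in the ninth, at 12 contacts, the diamond covers the circle.

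Over the 9 pairs that touched Mycn in both lists there were 182 untreated contacts and 122 after IAA. Scaled by the contacts of all 15551 shared H3K27ac pairs, which were 347765 without treatment and 340816 after IAA, the log2 ratio was -0.55 (95% exact Clopper-Pearson interval -0.89 to -0.21, counting error only). A total of 8 of the 9 pairs had a ratio below 0, whereas 46.2% of all shared pairs did. The 9 pairs share bins and are not independent of each other. Of the 9, 4 lay on the bin pair of a CTCF or RAD21 pair. Over all 1268 shared pairs of that kind, 790 had a ratio below 0. A binomial test (exact, two-sided) with Benjamini-Hochberg adjustment over all shared pairs called 0 of the 9 at 0.05, where the smallest adjusted p was 1.00. Pairs that it called anywhere had 49 contacts or more over both lists, which 1 of the 9 had, and a log2 ratio of at least 0.61 in size. It called 0.135% of all shared pairs, 0.0386% as lower after IAA, and it compares 2 pooled lists, not conditions with replicates. One pair, the Platr19 start-site bin with chr12:12942001-12944000, had 24 untreated contacts and 11 after IAA, an unadjusted p of 0.0413 by the same exact test and a log2 ratio of -1.10 (-2.27 to -0.01). Unadjusted p-values under 0.05 occurred in 4.41% of all shared pairs, and with fewer contacts after IAA in 2.43%.

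The other large pairs also had fewer contacts after IAA, each within its own counting error. For the pair of 34 and 21 contacts the log2 ratio was -0.67 (-1.52 to 0.16). For the pair of 29 and 16 contacts between chr12:12784001-12786000 and chr12:12942001-12944000 it was -0.83 (-1.81 to 0.10). The Platr19 exon bin had 19 and 11 contacts with the Mycn exon bin chr12:12938001-12940000, a ratio of -0.76 (-1.98 to 0.39), and 20 and 16 with the start-site bin, a ratio of -0.29 (-1.34 to 0.73). These 4 intervals all include 0, and each of the 4 pairs had fewer contacts in the IAA list.

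Set beside other genes, the sum at Mycn lay at the low end. Over the 1473 protein-coding genes with at least 5 shared touching pairs the median log2 ratio was -0.02, and the central 95% ran from -0.44 to 0.37. A ratio at or below that of Mycn was found for 14 of them, or 0.950%. Among the 618 genes with at least as many shared pairs as Mycn the number was 3, or 0.485%. Genes that lie side by side share pairs, so these shares describe the list and are not a test. Dividing contacts by the model's predicted counts, as given below, put Mycn at -0.34 (-0.68 to 0.00), and genes were not ranked that way.

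**Figure D3:**
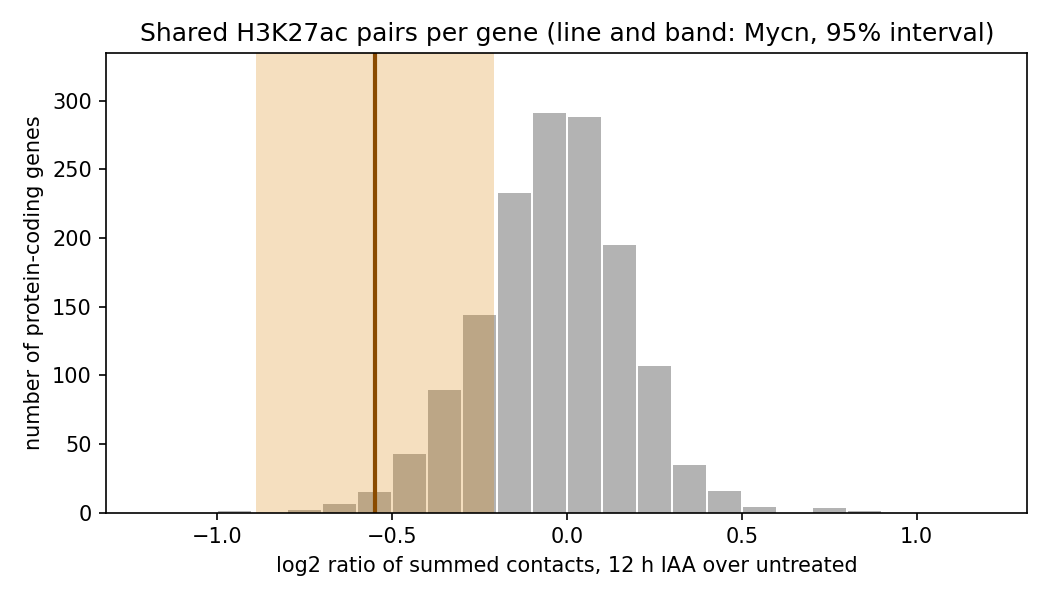
Log2 ratio of summed contacts (12 h IAA over untreated) over the shared H3K27ac pairs that touch a gene, as a histogram over the 1473 protein-coding genes with at least 5 such pairs. The vertical line is Mycn at -0.55 and the shaded band its 95% counting interval, which lies below the median of -0.02.

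The sum was lower over the pairs that reach the gene, while the sum over pairs within the downstream stretch was nearly the same in both lists. The stretch was chosen after its values were seen, so the ratios given for it are a description and not a test. The 6 shared pairs between Mycn and the stretch had 138 untreated contacts and 86 after IAA, a log2 ratio of -0.65 (-1.06 to -0.25), and all 6 had fewer. The 3 shared touching pairs with partners elsewhere had 44 and 36, a ratio of -0.26 (-0.94 to 0.41), and 2 of them had fewer. The 13 shared pairs with both bins inside the stretch had 222 and 209 contacts, a ratio of -0.06 (-0.34 to 0.22), and 9 of them had fewer. All shared pairs of 100 to 200 kb together had a ratio of -0.05. Over all 25 enclosed shared pairs of the Mycn window there were 441 and 364 contacts, a ratio of -0.25 (-0.45 to -0.04), with 0 of the 25 called by the adjusted test. Over the 17 of them that did not touch Mycn there were 269 and 251, a ratio of -0.07 (-0.32 to 0.18), with fewer contacts in 12 of the 17. The intervals of the touching and the other pairs overlap, and their difference was not tested.

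Inside the stretch the pair with most untreated contacts joined the Platr19 exon bin with chr12:12802001-12804000, with 34 contacts and 28 after IAA. The exon bin also met chr12:12804001-12806000 with 12 contacts and 21 after IAA, and that bin met chr12:12810001-12812000 with 17 and 25. These 2 are among the 4 of 13 stretch pairs with more contacts after IAA, each of the 2 within counting error (log2 ratios 0.84, -0.25 to 1.99, and 0.59, -0.36 to 1.57). The enclosed pairs that did not touch Mycn included 14 listed without treatment only, of 8 to 16 contacts, and 8 listed after IAA only, of 8 to 19. The highest untreated-only pair joined chr12:12802001-12804000 with chr12:12810001-12812000 by 16 contacts. The highest IAA-only pairs, with 19 contacts each, joined chr12:12812001-12814000 with chr12:12818001-12820000, and chr12:12866001-12868000 with chr12:12872001-12874000 in the noncoding gene Gm48187.

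The H3K27ac coverage of the bins themselves also differed between the lists, and its part in the contact differences was not tested. These are unscaled counts, and the model contact total was 12551236 without treatment and 14629323 after IAA. Over the 16828 bins found in both lists the median log2 ratio of coverage, IAA over untreated, was 0.20 (central 95% -0.12 to 0.59). The Mycn start-site bin had a coverage of 3428 reads without treatment and 2976 after IAA, a ratio of -0.20, and 1.04% of bins had a ratio as low. The bin chr12:12938001-12940000 had 3109 and 2679, a ratio of -0.21, which 0.909% of bins reached, and chr12:12942001-12944000 had 3410 and 3184, a ratio of -0.10, which 3.19% reached. The partner bin chr12:12926001-12928000 had 2046 and 1900, a ratio of -0.11, which 2.86% reached. In the noncoding gene Gm40271, chr12:12910001-12912000 had 1303 and 1214, a ratio of -0.10, which 3.05% reached, and chr12:12908001-12910000 had -0.02. The Mycn 3′ bin chr12:12936001-12938000 had 1342 and 1344, a ratio of 0.00. At the far end the Platr19 exon bin had 4828 and 4820 reads, a ratio of -0.00, and 10.2% of bins were as low. The start-site bin of Platr19 had 3513 and 3648, where 18.5% were as low, and chr12:12784001-12786000 had 2831 and 2809, where 9.26% were. At the remaining bins of the stretch the ratios ran from 0.03 to 0.34, with values above the median at, for example, chr12:12804001-12806000 with 1760 and 2172, a ratio of 0.30, and chr12:12800001-12802000 with 999 and 1264, a ratio of 0.34. The median over the 24 bins of the window was 0.10, and the lowest ratios, -0.21 and -0.20, were at the Mycn exon bin and start-site bin. Dividing the contacts by the counts that the authors' model predicts from distance and coverage gave a log2 ratio for the 9 touching pairs of -0.34 (-0.68 to 0.00), and of -0.12 (-0.33 to 0.08) for the enclosed pairs. That division was chosen after seeing the data.

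**Figure D4:**
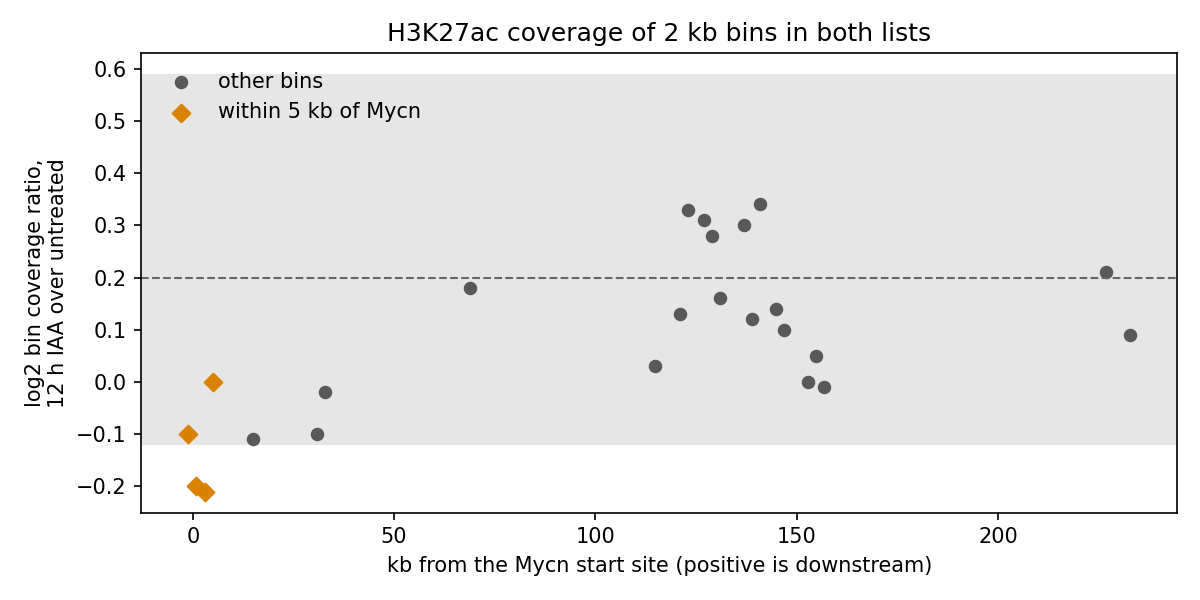
Log2 ratio of bin coverage (12 h IAA over untreated) for the 24 bins of the Mycn window found in both H3K27ac lists, against the distance of the bin centre from the Mycn start site in kb. The dashed line is the median of all 16828 bins found in both lists (0.20) and the grey band their central 95% (-0.12 to 0.59). Diamonds are the 4 bins within 5 kb of Mycn, which lie between -0.21 and 0.00.

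CTCF pairs at Mycn started mostly from a single 1 kb bin just upstream of the gene, chr12:12942001-12943000. It was in 10 of the 13 CTCF pairs that touched Mycn, with 156 contacts. Of the 34038 bins of the CTCF list, 4.80% were in 10 pairs or more, and the median was 2. The 13 pairs spanned 67 to 619 kb and had 7 to 24 contacts, and 12 of them were of 100 kb or more, against 64.5% of all CTCF pairs. The motif letters and the Mycn promoter, which lies partly in this bin and partly in the next one towards the gene, are shown to compare the bin with its partners. The search used the letters CC, any 3 bases, AG, any 2 bases and GGC, a core of the CTCF motif, on both strands without mismatches. Such letters occurred in 49.7% of the CTCF-list bins and in 18.0% of the same bins moved by 10000 bp. The 172 bases directly upstream of the GENCODE start of Mycn (chr12:12941915-12942086, minus strand, GRCm38.p6, sequence credited to RefSeq) hold no match, so no letters are capital, and are 54.1% G or C:
Mycn promoter: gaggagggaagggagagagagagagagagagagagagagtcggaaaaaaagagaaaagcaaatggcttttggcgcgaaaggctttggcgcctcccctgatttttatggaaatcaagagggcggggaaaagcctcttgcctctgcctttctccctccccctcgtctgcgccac
Of 32851 RefSeq promoters, 5.45% hold a match in the 172 bases before the start. The bin chr12:12942001-12943000 as a whole had 0 matches. Of its 10 CTCF partner bins 5 had a match, or 50.0%, near the share of the list. The partners with 19 and 14 contacts named below, chr12:13009001-13010000 and chr12:12420001-12421000, had none. The sites of 4 partners, among them the 3 with most contacts, are the following 30 bases, read 5′ to 3′ on the strand of the match, with the 12 matching letters in capitals.
chr12:12617735-12617764, plus strand: tggaggatgCCAGAAGATGGCgttagaatc
chr12:12623117-12623146, plus strand: agctcatctCCAGAAGGTGGCgctgtgctt
chr12:12788302-12788331, plus strand: agccctatcCCTTCAGAAGGCagagttcaa
chr12:13215949-13215978, minus strand: aatttttacCCTAAAGATGGCccaaaggac
Of these 4 sites, the 3 downstream of Mycn lie on the plus strand and the one beyond its 5′ side on the minus strand, so each of the 4 points towards the gene. The match not printed, in chr12:12781001-12782000, lies on the plus strand too. A match is a description of the letters and not of binding.

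The CTCF pairs with most contacts reached out on both sides of Mycn. The bin upstream of the gene had 24 contacts with chr12:12617001-12618000, 325 kb away, where 2.01 were predicted. It also had 24 contacts with chr12:13215001-13216000, 273 kb away on the 5′ side and just past the 3′ end of Ddx1 (chr12:13216973-13249213, minus strand), a DEAD-box RNA helicase gene that is often amplified together with MYCN in tumours. It had 20 contacts with the Platr19 exon bin chr12:12788001-12789000, 154 kb away, 19 with chr12:13009001-13010000, 67 kb away, 16 with chr12:12623001-12624000, 319 kb away, and 14 with chr12:12420001-12421000, 522 kb away. A pair of 14 contacts from chr12:12617001-12618000 to chr12:13215001-13216000 spanned the gene. Within the gene, the bins chr12:12938001-12939000 and chr12:12939001-12940000 had 7 and 10 contacts with the Platr19 exon bin. The Platr19 exon was thus a partner of Mycn in the H3K27ac lists and in the CTCF list.

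RAD21 pairs at Mycn mostly used the same upstream bin, which was in 6 of the 8 that touched the gene. All 8 spanned 100 kb or more, against 58.2% of all RAD21 pairs. The upstream bin had 18 contacts with chr12:12623001-12624000 and 17 with the Platr19 exon bin chr12:12788001-12789000. It had 9 each with chr12:12420001-12421000 and chr12:12421001-12422000. Within the gene, the bin chr12:12938001-12939000 had 8 RAD21 contacts with the Platr19 exon bin. The 1 kb bin with the Mycn start site, chr12:12941001-12942000, was in 1 RAD21 pair, of 10 contacts with the Platr19 exon bin, and in 0 CTCF pairs. No RAD21 pair that touched the gene had its far bin on the 5′ side. Another 2 spanned the gene without touching it, from chr12:12617001-12618000 and from chr12:12623001-12624000 to chr12:13215001-13216000, with 7 and 8 contacts.

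At equal 1 kb bins, 5 of the 13 CTCF pairs that touched Mycn were also in the RAD21 list, or 38.5% (95% Wilson interval 17.7 to 64.5), against 34.4% of all CTCF pairs. In the other direction 5 of 8 RAD21 pairs were in the CTCF list, or 62.5%, against 72.2%. Both shares were near the background. Over the enclosed CTCF pairs of the window the number was 5 of 15, or 33.3% (15.2 to 58.3). The 2 CTCF pairs of 24 contacts were not in the RAD21 list.

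Of the 24 untreated H3K27ac pairs that touched Mycn, 4 lay on the bin pair of a CTCF or RAD21 pair, or 16.7%, all with a Platr19 bin. Over all untreated H3K27ac pairs the share was 8.58%, with 6.23% on a CTCF bin pair and 5.68% on a RAD21 bin pair. All 4 were among the 9 pairs listed again after IAA, and 8.15% of all shared pairs lay on such a bin pair. The 4 pairs had 97 untreated contacts and 59 after IAA, a log2 ratio of -0.69 (-1.18 to -0.21). The other 5 shared pairs had 85 and 63 contacts, a ratio of -0.40 (-0.90 to 0.08). Over all lists, the 1268 shared H3K27ac pairs on a CTCF or RAD21 bin pair had a ratio of -0.16 (-0.18 to -0.14). The intervals of the 2 groups at Mycn overlap, and their difference was not tested.

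Mycl showed the reverse order, with large CTCF and RAD21 pairs and few H3K27ac pairs. The 1 kb bin with the Mycl start site, chr4:122995001-122996000, was in 8 CTCF pairs with 206 contacts, and 8.02% of CTCF-list bins were in as many. The strongest joined it with chr4:123083001-123084000, 88 kb downstream and beyond the next gene, Trit1, which encodes a tRNA-modifying enzyme. That pair had 92 CTCF contacts where 6.51 were predicted and 76 RAD21 contacts, 18.3 times the prediction. Counts as high were found in 0.846% of CTCF pairs and 0.973% of RAD21 pairs. The partner bin holds no annotated gene and was in 9 of the CTCF pairs assigned to Mycl, with 269 contacts. Of the 8 CTCF partner bins of the start-site bin 6 had a motif match, or 75.0%, against 49.7% of all CTCF-list bins. That difference was not tested. The start-site bin and 3 partners are shown, with sites found and printed as at Mycn, because their strands can be compared.
Mycl start-site bin, chr4:122995472-122995501, plus strand: ggccgagggCCACCAGGTGGCgcggtggag
chr4:123083056-123083085, minus strand: tacttgtggCCGCCAGGGGGCagaaagagg
chr4:122944563-122944592, plus strand: tccttactcCCAGTAGGTGGCgctaaaagc
chr4:123200830-123200859, minus strand: ccctgttggCCAGCAGGGGGCgtgcatttt
The site in the Mycl start-site bin lies upstream of the gene body and on the plus strand, and the site in its strongest partner lies on the minus strand, so the 2 face each other. The site at chr4:122944563-122944592, on the other side of Mycl, has the strand of the Mycl site. So does a match not printed, in the downstream partner chr4:123082001-123083000. Among the CTCF pairs that touched Mycl, 6 had motif letters on 1 strand at each end. Of these 6, 3 faced each other and 3 pointed the same way.

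The other 7 CTCF pairs of the Mycl start-site bin had 11 to 23 contacts. On the 5′ side it had 23 with chr4:122987001-122988000, 22 with chr4:122944001-122945000 and 13 with chr4:122910001-122911000. On the 3′ side it had 21 with chr4:123071001-123072000, 13 with chr4:123023001-123024000 in an intron of Trit1, 11 with chr4:123082001-123083000 and 11 with chr4:123200001-123201000. The last, at 205 kb, was the only one of 100 kb or more among the 9 CTCF pairs that touched Mycl. The ninth pair joined the Mycl exon bin chr4:122997001-122998000 with chr4:123083001-123084000 by 11 contacts.

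In the RAD21 list the Mycl start-site bin was in 6 pairs. Beside the 76 contacts above it had 24 with chr4:123082001-123083000, 19 with chr4:123071001-123072000, 14 with chr4:122944001-122945000 and 11 with chr4:123023001-123024000. It had 20 with chr4:123016001-123017000, the start-site bin of Trit1, which was the only protein-coding promoter among its CTCF and RAD21 partners. That promoter pair was not in the CTCF list. The other 5 RAD21 pairs were in the CTCF list too.

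Further pairs spanned Mycl without touching it. Of the CTCF pairs, 9 enclosed the gene body, with 9 to 59 contacts. The largest joined chr4:122944001-122945000 with chr4:123083001-123084000 over 139 kb, with 59 CTCF and 47 RAD21 contacts. The same downstream bin had 28 CTCF contacts with chr4:122910001-122911000, 22 with chr4:122912001-122913000, and 11 each with chr4:122898001-122899000 and chr4:122808001-122809000. Its neighbour chr4:123082001-123083000 had 18 with chr4:122944001-122945000. RAD21 had 4 such pairs, of 8 to 47 contacts, all of which ended at chr4:123083001-123084000. Beside the one of 47, they came from chr4:122898001-122899000 and chr4:122910001-122911000 with 12 each and from chr4:122808001-122809000 with 8. Of the 9 CTCF pairs 7 ended at that bin. Of the pairs that run downstream from the start-site bin itself, 1 of 5 CTCF pairs and 1 of 5 RAD21 pairs did, namely those of 92 and 76 contacts.

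**Figure D5:**
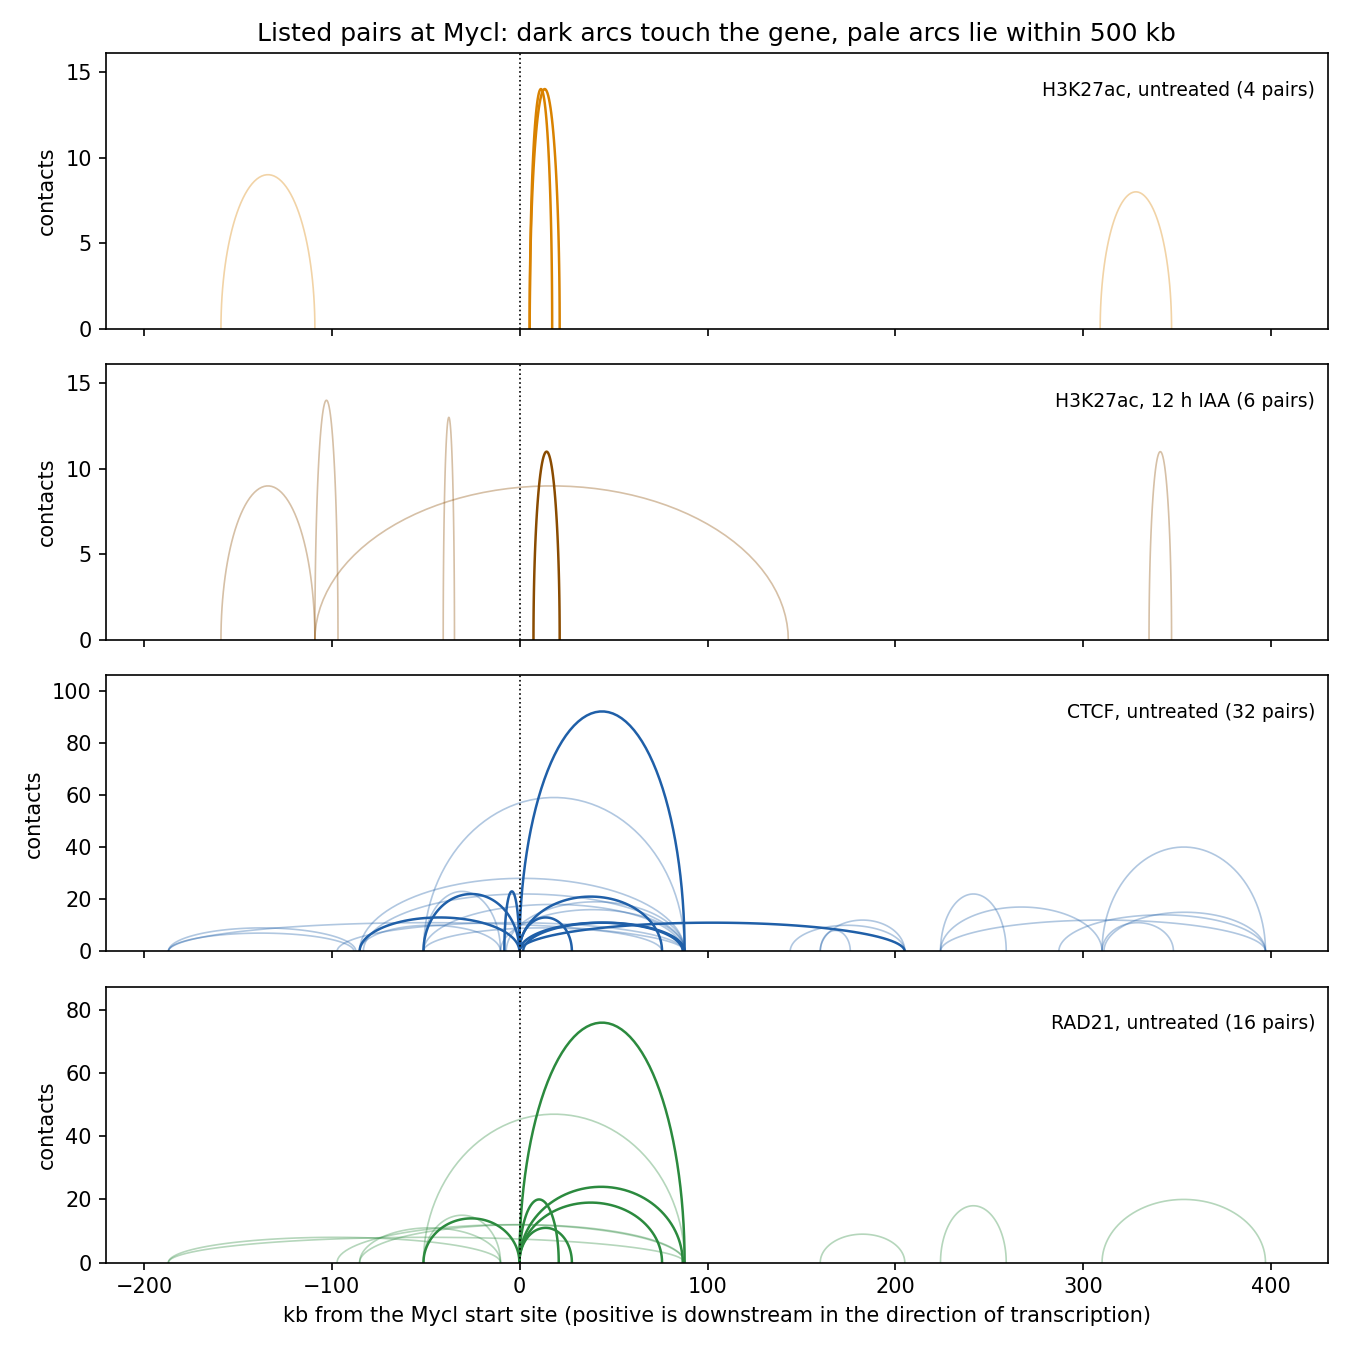
Pairs listed at Mycl in each of the 4 lists, drawn as arcs between bin centres against the distance in kb from the Mycl start site, positive in the direction of transcription. The height of an arc is its number of contacts, on a scale of its own in each panel, dark arcs touch the gene and pale arcs are enclosed pairs that do not. The tallest arc of the CTCF panel (92 contacts) and of the RAD21 panel (76) join the start-site bin with the same bin 88 kb downstream.

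Over the Mycl window, 14 of 32 enclosed CTCF pairs were in the RAD21 list, or 43.8% (28.2 to 60.7), and 14 of 16 RAD21 pairs in the CTCF list, or 87.5% (64.0 to 96.5). The whole-list shares of 34.4% and 72.2% lie in these intervals. Motif letters on 1 strand at each end were found for 21 of the 32 CTCF pairs, of which 12 faced each other, 9 pointed the same way and 0 pointed apart. For Mycn 5 of 17 pairs could be read in this way, with 3 facing each other, 2 pointing the same way and 0 pointing apart. Over the 13223 readable CTCF pairs of the list, 59.7% faced each other and 4.76% pointed apart.

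The H3K27ac pairs of Mycl left its promoter out. Without treatment the exon bin chr4:123000001-123002000 had 14 contacts with chr4:123012001-123014000 and 14 with the Trit1 start-site bin chr4:123016001-123018000. Neither was listed after IAA, when the neighbouring exon bin chr4:123002001-123004000 had 11 contacts with the Trit1 start-site bin. Trit1 was thus the partner in both lists, with bins of Mycl that differed by 1. The start-site bins of Mycl were in 0 H3K27ac pairs in both lists.

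In the wider Mycl window 4 untreated and 6 IAA pairs were enclosed, of which 1 was shared. It joined the start-site bins of Ppt1, a lysosomal thioesterase gene, and Cap1, a gene of an actin regulator, with 9 contacts each time (log2 ratio 0.03, -1.48 to 1.54). The pair between chr4:123304001-123306000 and the Bmp8a start-site bin, with 8 contacts, was listed without treatment only. Listed after IAA only was a pair of 9 contacts over 252 kb between the start-site bins of Cap1 and Ppie (chr4:122886001-122888000 and chr4:123138001-123140000), with 1.16 predicted contacts and a q-value of 0.00267. Ppie encodes a peptidyl-prolyl isomerase. This pair spans Mycl and 15 bins of the CTCF list, and 48.3% of all IAA pairs span at least 1 such bin. The median IAA pair spanned 22 kb, so that share is not a background for a pair of this length. The other IAA-only pairs spanned 6 to 14 kb, with 14 contacts at Cap1, 13 at Mfsd2a, 11 at Bmp8a and the Trit1 pair above.

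At Myc a single pair was listed. After IAA the start-site bin chr15:61984001-61986000 had 14 contacts with chr15:61978001-61980000, 6 kb upstream, where 3.04 were predicted, with a q-value of 0.00275. The partner bin holds an exon of Gm37947, an unclassified transcript. Within 500 kb of Myc the lists used here held 0 untreated H3K27ac, 0 CTCF and 0 RAD21 pairs, although the long noncoding gene Pvt1 (chr15:62037986-62378096) and other transcripts lie in that window. Of all protein-coding genes, 84.1% had an enclosed untreated H3K27ac pair, 82.7% an H3K27ac pair after IAA, 89.2% a CTCF pair and 85.0% a RAD21 pair. Absence from a list does not show absence of contact. Outside the window, a CTCF pair of 6 contacts over 1656 kb, from chr15:61157001-61158000 to chr15:62813001-62814000, spanned Myc. That pair was named after its values were seen.

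Genes that work with or under MYC were read from lists by the H3K27ac pairs at their start-site bins. The network list held the dimerisation partner Max and 11 other genes, among them the MAX-binding repressors Mnt and Mga. Untreated pairs lay at 8 of the 12 genes, 23 in all, and IAA pairs at 4, 10 in all. Of all protein-coding gene names 31.3% had an untreated pair and 28.1% an IAA pair. Mnt had 9 untreated pairs and 4 after IAA, and its 4 shared pairs had 93 and 70 contacts, a log2 ratio of -0.38 (-0.85 to 0.08). Mga had 4 and 2 pairs, both of the latter shared, with 64 and 48 contacts, a ratio of -0.39 (-0.96 to 0.18). Over the 7 shared pairs of the list there were 177 and 134 contacts, a ratio of -0.37 (-0.71 to -0.04), and 0 passed the adjusted binomial test, with 1 at an unadjusted p under 0.05. Of the 8 genes with a pair in either list, 7 had fewer pairs after IAA and 1, Mycbp, had more, with 2 and 3. Over all 7793 protein-coding gene names with such a pair, 51.8% had fewer and 26.0% had more. Of the 23 untreated pairs 7 were called again, against 42.9% over the whole list. The ratio rests on 7 pairs at 3 genes.

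The list of genes known as MYC targets had untreated pairs at 9 of 11 genes, 47 in all, and IAA pairs at 7, 34 in all, beside the 31.3% and 28.1% of all gene names given above. Ncl, the gene of the nucleolar protein nucleolin, had 22 and 19 of them, and its 18 shared pairs had 298 and 325 contacts, a log2 ratio of 0.15 (-0.08 to 0.39). Ldha, a glycolytic enzyme gene, had 5 untreated pairs and 0 after IAA, and Fbl, which encodes the nucleolar methyltransferase fibrillarin, had 3 and 0. Cdk4, a cell cycle kinase gene, had 4 and 4 pairs, Nme1 3 and 3, and Eif4e 2 and 2. Npm1, a nucleolar protein gene, had 6 and 3, Odc1 1 and 0, Cad 1 and 2 and Tert 0 and 1. Of the 10 genes with a pair in either list, 5 had fewer pairs after IAA and 2 had more. These shares were near the background of 51.8% and 26.0%. Over the 23 shared pairs of the list there were 437 and 448 contacts, a ratio of 0.06 (-0.13 to 0.26). None passed the adjusted exact binomial test, in which the smallest adjusted p was 0.0892 at Ncl, and 3 had an unadjusted p under 0.05. Shared contacts of the target list were close to even, with most of them at Ncl. At the other genes with shared pairs the ratios were -0.14 for Npm1, -0.31 for Cdk4, 0.00 for Cad and -0.19 for Eif4e. Each of these intervals includes 0, and so does that of Ncl.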

How the data were processed

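MNase HiChIP was represented by 4 deposited lists of called bin pairs, 1 per group, and the labels of all libraries of a group name that list, so the lists are taken as pooled. Per the file headers the lists give whole contact counts and bin coverage counts that the authors did not normalise, a probability (a fraction) and a predicted count from the authors' model, and p-values and q-values, with the largest q at 0.0500. The layout is that of FitHiChIP. The caller's settings are not given in the sources used here. The submitters' processing notes name mm10, Trim Galore, BWA, MACS2 and deepTools.

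Pairs were matched to GENCODE M21 genes with pandas 2.3.3 in Python 3.11.15. Pairs with identical bins in both H3K27ac lists counted as shared. Log2 ratios of contacts were scaled by the contacts of all shared pairs. The exact two-sided binomial test (scipy 1.17.1) with Benjamini-Hochberg adjustment ran over all 15551 shared pairs. On simulated data it missed most 2-fold changes, so a pair that it did not call is not shown to be unchanged. Intervals are 95% Wilson for shares and Clopper-Pearson for ratios. Neither holds replicate error, because each group has 1 pooled list. The ratio intervals describe counting error alone and may be too narrow, since reads lack molecular identifiers and need not stem from separate molecules. The Wilson intervals treat pairs as independent, although pairs share bins. Long range means 100 kb or more.

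Named pairs were every pair at a member's start-site bin, the 5 with most contacts that touch a member in a list, the 5 largest long-range CTCF and RAD21 pairs that touch or span it, the 5 H3K27ac pairs with most untreated contacts and the 3 with most contacts in 1 list only per window, and shared pairs with an unadjusted p under 0.05. The members, gene lists and tests were chosen with earlier results of these data known. Alternatives covered the q threshold, a minimum of 10 contacts, a tolerance of 1 bin, the margins, list length and scaling.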

Additional observations from a re-analysis of the deposited data

How the results depend on the processing

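Of 48 values under other settings, 44 stayed within the spread defined for them and 4 moved. For shares and ratios the spread was the interval of the reported value. Some of the 44 could not have moved, so this tally does not measure stability. Stricter cuts can only return 0 from the 0 long-range CTCF pairs at Myc. With 0 member pairs past the adjusted threshold, a threshold of 0.01 can only return 0. At Mycl the share called again (2 pairs) had an interval of 0 to 65.8%. The enclosed ratio (1 pair) had -1.48 to 1.54, so few settings could move either. Allowing each bin to differ by 1 raised the share of untreated Mycn pairs called again to 62.5%, and that of the whole untreated list to 65.7%. Counting only bins that overlap the gene body left 3 long-range CTCF pairs at Mycn, since the bin upstream of the start was then left out, and gave the touching H3K27ac pairs a log2 ratio of -0.43 (-0.97 to 0.10). A q-value of 0.01 or less left 0 long-range CTCF pairs that touch Mycl. Scaling by the model contact totals, which puts all shared pairs at -0.25, gave -0.50 for the enclosed and -0.80 for the touching Mycn pairs. Dividing by predicted counts, added after seeing the data, gave intervals that reach 0, as reported above.

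No paired analysis was possible because each group has 1 pooled list. The settings that leave out a library were not run for the same reason. Single pairs rest on few contacts, with 13 to 14 for the median listed pair.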
